A study of Arabidopsis thaliana with 24 samples.

Results

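The comparison set roots of Arabidopsis thaliana plants watered with a KCl solution against roots of plants watered with millipore water. It comprised the 6 arrays, of 24 in all, that carried those treatments and the root label, 3 arrays in each group. All plants were wild-type Columbia (Col-0), grown in pots of potting medium and 29 days old at harvest, and were watered from above with their liquid on days 0, 4 and 17. The submitters' sample descriptions put the KCl at 0.1 mM, but their treatment protocol puts it at 0.1 M, so the dose behind every result here is uncertain by that much. Both liquids were the controls of particle treatments. A further 3 root arrays came from plants given nano-titania (TiO2, 500 mg/L) suspended in KCl, and 3 from plants given nano-ceria (CeO2, 500 mg/L) suspended in water. Leaves of the same 4 treatments filled the other 12 arrays. The labels call the replicates biological but do not say that they came from separate pots or plants, so the p-values measure the spread between these arrays only.

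Potassium is the main inorganic cation of plant cells, and roots take it up through channels and through carriers of the KUP/HAK and CHX families. Chloride enters roots partly through members of the nitrate transporter families, some of which also load it into the xylem. Strong salt treatment is known to induce abscisic acid and dehydration genes in Arabidopsis roots, among them the dehydrins and cold-regulated (COR) genes.

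The unit of all values is the log2 signal of a probe set (22746 on the array), in which a difference of 1 is a change of signal by a factor of 2. Array medians were between 4.96 and 5.15 in the 6 arrays. Pearson correlations ran from 0.920 to 0.933 within the KCl group, from 0.903 to 0.975 within the water group and from 0.861 to 0.936 between them. KCl replicates 1 and 3 and water replicate 1 had a compressed range, with lower quartiles of 3.90, 3.74 and 3.73, and water replicate 3 was close to them at 3.67. Leaving these 3 arrays out sets 1 KCl array against 2 water arrays, and the lone KCl array is then assumed to vary like the other groups. TiO2 root replicate 2, with a lower quartile of 3.78, was narrow as well and was left out of the same fit. Values computed that way are given below as the difference without the narrow arrays. The number of arrays limits the precision of every value.

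Root identity was checked with the few marker genes that had a named probe set. PYK10, the main beta-glucosidase of root endoplasmic reticulum bodies, was at 10.02, 12.61 and 11.04 on the KCl root arrays and at 11.15, 11.60 and 10.31 on the water root arrays. The 2 measured root tissue genes had a median level of 9.03 ± 0.93 (SD, n = 3) in KCl roots and 8.49 ± 0.74 in water roots, against 4.6 and 4.04 in leaves of the same treatments. The 11 measured nuclear photosynthesis genes, which mark leaf tissue, were at 6.24 ± 1.19 in KCl roots and 6.5 ± 0.85 in water roots, and at 12.22 ± 0.57 and 12.71 ± 0.07 in leaves. Both root groups therefore carried high root and much lower leaf marker signal, but the leaf marker signal was not at the floor of the arrays and varied from array to array. The 2 measured root hair genes were near the floor in both groups, at 3.77 ± 0.28 and 3.83 ± 0.15. In whole roots, fewer cells of a type and less RNA per cell cannot be told apart.

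Between the liquids 27 probe sets passed, 0.119% of those tested (limma, Benjamini-Hochberg adjusted p under 0.05). KCl roots were higher in 11 of them (0.0484%) and lower in 16 (0.0703%). Their differences ran in size from 1.3 to 5.15, their adjusted p from 0.0344 to 0.0497, and the 3 KCl and 3 water arrays did not overlap in any of the 27. Over all probe sets the arrays did not overlap in 15.9%, and an unadjusted p under 0.05 was reached by 2636, which is 11.6%. The split between directions depended on scaling. It was 7 higher and 21 lower when each array was centred on its median, and 25 higher and 12 lower after the root arrays were quantile-normalized again. Centring moved the median difference of all probe sets by -0.12, from 0.03 to -0.09, so differences of that size have no settled direction.

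The calls lay close to the threshold and rested on the full set of arrays. With the replicate number as a block, which pairs KCl and water arrays of the same number, 0 probe sets passed limma's adjusted test, while 2633 had an unadjusted p under 0.05. All 27 kept an unadjusted p under 0.05 in that fit, the largest being 0.000255, and the smallest adjusted p was 0.0723. Leaving out water replicate 1, 2 or 3 also left 0 calls, with 2468, 2514 and 1984 probe sets at an unadjusted p under 0.05. Leaving out KCl replicate 3 left 1 call, KCl replicate 1 left 12 and KCl replicate 2 left 17. Without the narrow arrays all 27 kept their sign. That had to follow, because their KCl and water arrays did not overlap.

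Of the 27 probe sets, 12 belonged to 1 named gene each, 7 higher and 5 lower in KCl roots. The 7 genes that rose include transcription factors, a defence-type signalling gene, a ubiquitin gene and an actin-binding gene. In every one of them the TiO2-in-KCl and CeO2-in-water roots had a lower mean than the KCl roots. The same held for 68.5% of all probe sets higher in KCl, and it partly follows from the choice of genes.

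AT1G31050, which encodes a bHLH-type transcription factor, was at 7.04, 7.05 and 8.25 on the KCl arrays and at 3.86, 4.87 and 4.02 on the water arrays. All 3 KCl arrays lay more than 2 log2 units above the highest water array. The difference was 3.20 ± 0.45 (SE; limma adjusted p = 0.0367, 0.0844 with the replicate block) and 2.61 without the narrow arrays. LHW (LONESOME HIGHWAY), the bHLH factor required for the normal number of vascular cell files in the root, was at 8.29, 8.86 and 8.92 in KCl and at 6.12, 5.90 and 6.39 in water. Its groups were likewise far apart, with a difference of 2.55 ± 0.37 (adjusted p = 0.0377, 0.0853 with the block) and 2.71 without the narrow arrays. CeO2 roots stood between them at 7.87 ± 0.29, and TiO2 roots were near water at 6.29 ± 0.79. LHW was the 1 gene that passed of the 4 measured regulators of root meristem, cap and vasculature, where 0.0484% of all probe sets passed as higher. The list was chosen with earlier results known, so that count is no result about such regulators.

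AT1G72920, a gene for a protein with the TIR domain of plant immune receptors, was at 7.83, 7.09 and 7.46 in KCl and at 4.63, 4.82 and 4.55 in water. It rose by 2.79 ± 0.38 (adjusted p = 0.0367, 0.0844 with the block) and by 2.41 without the narrow arrays. The spread within each group was small beside that gap. TiO2 roots were at 5.61 ± 0.85 and CeO2 roots at 5.15 ± 0.28. AT1G72920 was also higher by 2.04 ± 0.67 in KCl leaves, where it did not pass (adjusted p = 0.245). The 1 measured gene of the salicylate and immune list, WRKY53, a WRKY factor of senescence and defence, was at 10.30, 10.16 and 6.83 in KCl roots and at 6.85, 7.79 and 7.02 in water roots. KCl replicate 3 lay below every water array, and it did not pass (difference 1.88, adjusted p = 0.548).

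AT1G23410, which encodes ubiquitin fused to the small-subunit ribosomal protein S27a, was at 7.04, 7.28 and 5.85 in KCl and at 3.80, 3.82 and 4.32 in water. The water arrays were near the floor, and the lowest KCl array was still above the highest of them. It rose by 2.74 ± 0.36 (adjusted p = 0.0367, 0.0844 with the block) and by 3.21 without the narrow arrays. Near-identical copies of such fusion genes exist in the genome, so signal from a copy cannot be told apart here. AT5G48460, a fimbrin-like gene whose family bundles actin filaments, was at 6.19, 6.85 and 6.32 in KCl and at 4.73, 4.38 and 4.24 in water. It rose by 2.01 ± 0.25 (adjusted p = 0.0367, 0.0844 with the block) and by 2.54 without the narrow arrays.

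AT1G05320 was at 5.93, 6.01 and 6.44 in KCl and at 4.59, 3.84 and 4.35 in water. It rose by 1.87 ± 0.26 (adjusted p = 0.0367, 0.0853 with the block). AT3G53220, a member of the thioredoxin superfamily, whose proteins reduce disulphide bonds, was at 5.22, 5.0 and 5.09 in KCl and at 3.91, 3.32 and 3.92 in water. It rose by 1.38 ± 0.21 (adjusted p = 0.0497, 0.0853 with the block), and its KCl arrays were the most tightly grouped of the 7 genes, with an SD of 0.11. Without the narrow arrays these genes differed by 1.92 and 1.38. AT1G66020, a terpene synthase-like gene, just missed the threshold. Its arrays read 7.99, 8.95 and 9.06 in KCl and 6.12, 5.89 and 6.06 in water, a difference of 2.65 ± 0.41 (adjusted p = 0.0515).

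The 5 named genes that fell in KCl roots encode a transporter-like protein, enzymes of nucleotide and tetrapyrrole synthesis, and proteins whose roles are less certain. The steepest fall was that of AT4G34950, a member of the major facilitator superfamily of membrane transporters. It was at 6.15, 6.22 and 7.07 in KCl and at 8.75, 10.54 and 9.16 in water. Every KCl array lay below every water array, and the water arrays were the more scattered. The difference was -3.00 ± 0.46 (adjusted p = 0.0497, 0.0844 with the block) and -3.63 without the narrow arrays.

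AT1G30820, a CTP synthase, which makes the cytidine nucleotide used for RNA and phospholipids, was at 8.69, 7.88 and 8.35 in KCl and at 10.53, 11.39 and 10.81 in water. It fell by 2.6 on the log2 scale (difference -2.6 ± 0.35, adjusted p = 0.0367, 0.0844 with the block), and the difference was -3.21 without the narrow arrays. Of the 4 measured CTP synthase genes 3, AT1G30820 among them, were lower in KCl, as were 46.5% of all probe sets. AT1G30820 passed, where 0.0703% of all probe sets passed as lower, and the median difference was -0.68. GSA1, glutamate-1-semialdehyde aminomutase of tetrapyrrole synthesis, was at 7.15, 7.08 and 7.19 in KCl and at 8.55, 8.59 and 8.36 in water. Its replicates were very close together, so that a difference of -1.36 ± 0.16 passed (adjusted p = 0.0344, 0.0844 with the block), and it was -1.40 without the narrow arrays.

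AT1G16840 was at 7.79, 7.19 and 7.51 in KCl and at 9.81, 10.03 and 9.79 in water (difference -2.38 ± 0.33, adjusted p = 0.0367, 0.0853 with the block). AT5G18490 was at 7.01, 7.49 and 6.66 in KCl and at 9.45, 8.96 and 9.58 in water (difference -2.28 ± 0.27, adjusted p = 0.0344, 0.0844 with the block). Both were clear of overlap, and without the narrow arrays they differed by -2.72 and -1.79. A further 3 genes came close without passing. AT5G15870, a glycosyl hydrolase, differed by -2.20 ± 0.36 (adjusted p = 0.053), AT1G48210, a protein kinase, by -1.90 ± 0.31 (adjusted p = 0.0515) and AT3G55960 by -1.5 ± 0.24 (adjusted p = 0.0515).

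The other 15 probe sets that passed, 4 higher and 11 lower, have no gene in the annotation used here and hold the largest differences of all. Probe set 250662_at was at 6.68, 6.81 and 6.77 in KCl and at 10.80, 12.91 and 12 in water, a difference of -5.15 ± 0.69 (adjusted p = 0.0367, 0.0844 with the block). Probe set 258239_at was at 5.20, 4.64 and 5.42 in KCl and at 9.5, 8.77 and 10.50 in water (difference -4.50 ± 0.61, adjusted p = 0.0367, 0.0853 with the block). In both, the lowest water array was more than 3 log2 units above the highest KCl array. On the other side, 249752_at was at 7.12, 7.37 and 8.82 against 4.1, 3.75 and 4.48, a difference of 3.66 ± 0.50 (adjusted p = 0.0367, 0.0723 with the block). Probe set 263470_at was at 7.54, 6.34 and 6.66 against 4.2, 3.78 and 3.76 (difference 2.94 ± 0.41, adjusted p = 0.0367, 0.0844 with the block).

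**Figure D1:**
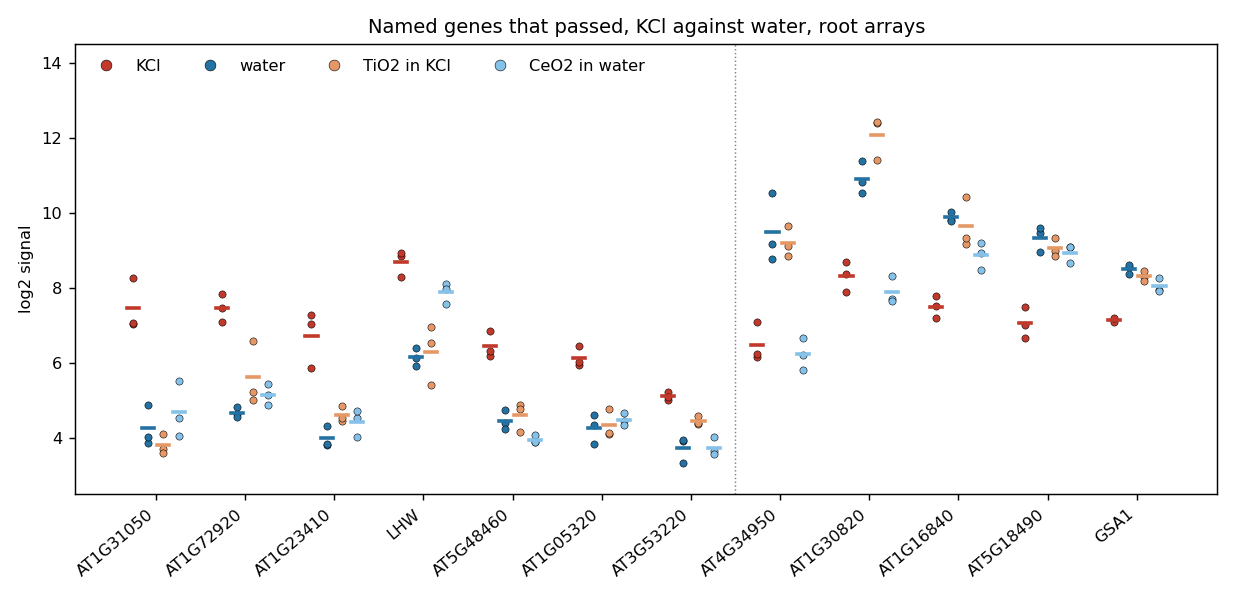
Log2 signal of the 12 named genes that passed for KCl against water, for each of the 12 root arrays (points) and as group means (bars), with the 7 genes that rose left of the dotted line and the 5 that fell right of it. KCl points clear the water points in every gene, TiO2 points of AT1G30820 and AT4G34950 sit near water or above it, and CeO2 points of both sit near KCl.

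Genes that fell were brighter than genes that rose. The median mean level over the root arrays was 8.44 for the 16 lower and 5.04 for the 11 higher probe sets, against 5.12 for all. The whole array showed a tilt of the same kind. With probe sets split by level into 10 bins of equal size, the median difference was 0.03 in the dimmest bin, reached 0.12 in the fifth and was -0.36 in the brightest. Without the narrow arrays the same medians were -0.07, 0.00 and -0.07. Other bins were not at 0 either, with -0.12 in the third, 0.16 in the sixth and 0.12 in the seventh. What part the narrow arrays had in each single call was not tested beyond the values without them given above.

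**Figure D2:**
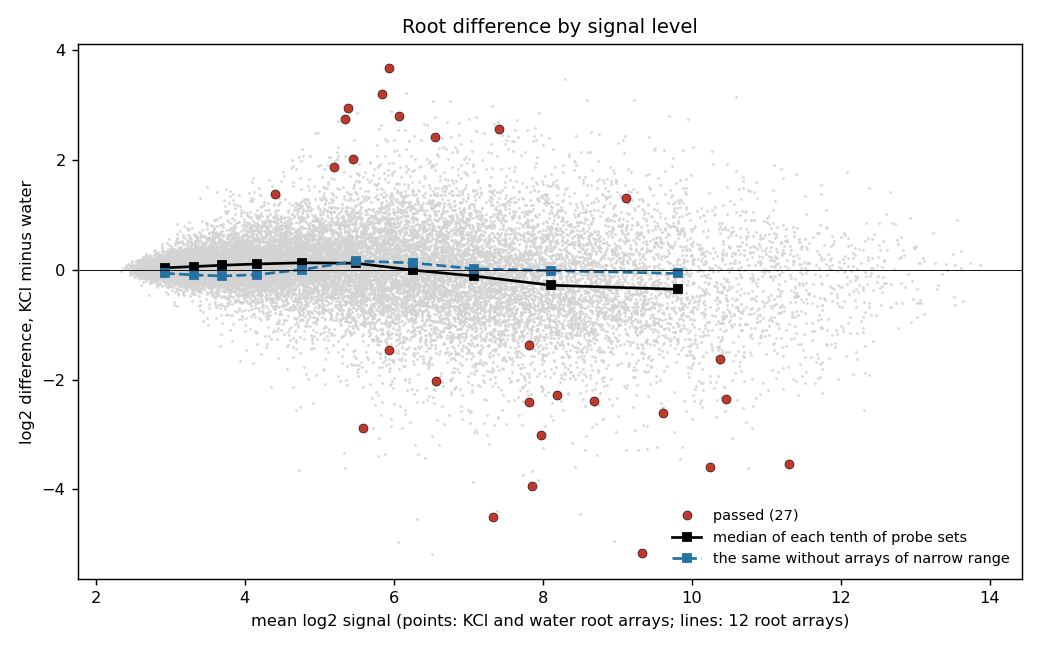
Log2 difference, KCl minus water roots, against mean log2 signal for all 22746 probe sets (grey) and the 27 that passed (red), with the median of each of 10 bins by level with all arrays (black) and without the arrays of narrow range (blue, dashed). The black line falls to -0.36 in the brightest bin, where the blue line is at -0.07.

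The TiO2 and CeO2 roots received the same liquids with particles in them and share no array with the 2 controls. Their difference sets the liquids against each other a second time, with liquid and particle that cannot be told apart. Both differences were tested with the residual spread of the same 12 root arrays, so their calls are not independent. TiO2-in-KCl and CeO2-in-water roots differed in 38 probe sets (0.167%, 4 with the replicate block). That count was 0 without TiO2 replicate 3, 1 without CeO2 replicate 3 and 4 without TiO2 replicate 1, and it was 9, 11 and 25 without CeO2 replicate 2, CeO2 replicate 1 and TiO2 replicate 2. Of the 16 probe sets lower in KCl than in water, 15 had the opposite sign between TiO2 and CeO2 roots, where 55.8% of all lower probe sets did. Their median there was 1.67, with a range from -0.15 to 5.20, against 0.05 for all lower probe sets. Of the 11 higher probe sets 6 had the same sign, where 48.6% of all higher ones did, and their median was 0.02. KCl roots held the highest of the 4 root group means in 11 of the 11 higher probe sets, against 68.5% of all probe sets higher in KCl. They held the lowest in 13 of the 16 lower ones, against 56.3%. These 4 shares partly follow from the choice of probe sets by the control arrays.

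Both comparisons called 7 probe sets, which is 25.9% of the 27 and 18.4% of the 38, and all 7 had opposite signs in them. Shared calls can partly follow from the residual spread that both tests used. With the block the KCl and water roots had 0 calls, so none was then shared. The 7 include 2 named genes. AT1G30820 was at 12.07 ± 0.58 in TiO2 roots and 7.89 ± 0.38 in CeO2 roots, a difference of 4.18 ± 0.35 (adjusted p = 0.00642, 0.024 with the replicate block), whereas KCl roots were below water roots. AT4G34950 was at 9.20 ± 0.40 in TiO2 and 6.22 ± 0.42 in CeO2 roots, a difference of 2.98 ± 0.46 that did not pass with the block (adjusted p = 0.0421, 0.0735 with the block). For both genes the water and the TiO2 roots were high and the KCl and the CeO2 roots low. The unnamed 258239_at had the same order, with 11.18 ± 0.08 in TiO2 and 5.97 ± 1.34 in CeO2 roots.

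**Figure D3:**
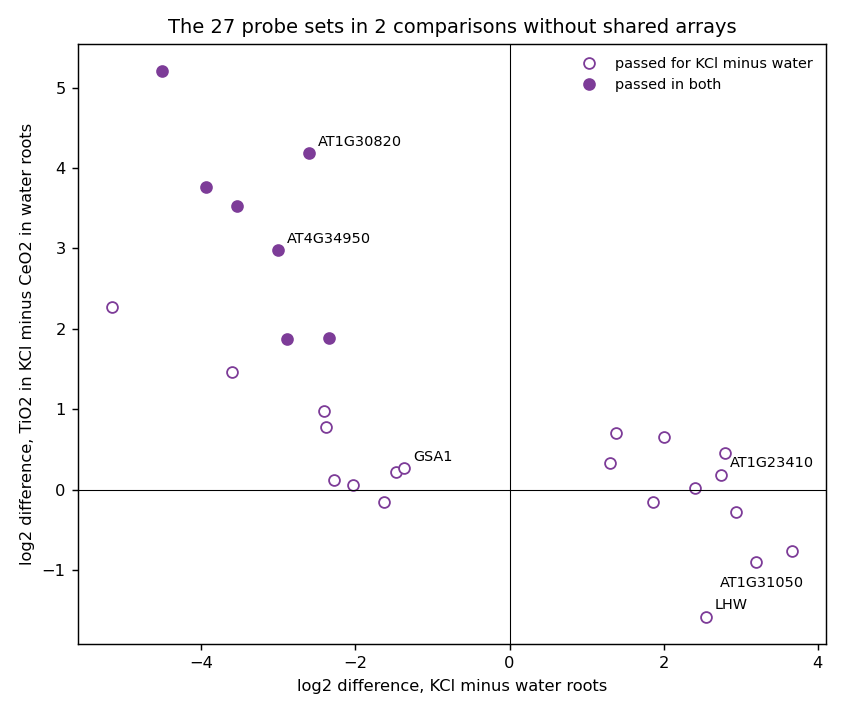
Log2 difference between TiO2-in-KCl and CeO2-in-water roots against that between KCl and water roots for the 27 probe sets that passed the latter, with filled points for the 7 that passed in both. All 7 filled points lie at the upper left, lower in KCl than in water and higher in TiO2 than in CeO2 roots.

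Few genes of ion transport had a named probe set, and no member of these lists passed. Of 36 listed potassium transport genes 1 was measured, AT1G60160, a KUP/HAK-type carrier, at 6.44, 6.37 and 7.13 in KCl and 6.10, 6.29 and 6.38 in water. Its groups overlapped (difference 0.39 ± 0.59, adjusted p = 0.899). Of 6 CHX cation exchangers 3 were higher and 3 lower, with a median of -0.05, and CHX15 had the lowest unadjusted p (difference 0.56, adjusted p = 0.309). The 8 glutamate receptor-like cation channels had a median of -0.07, with GLR3.6 at 0.48.

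Among 34 listed chloride and nitrate transport genes 6 were measured, 4 higher and 2 lower, with a median difference of 0.18. AT1G33440, a gene of the nitrate and peptide transporter family, was at 5.81, 5.45 and 6.46 in KCl and 3.65, 4.17 and 3.7 in water. The groups were more than 1 log2 unit apart, and the difference of 2.07 ± 0.34 just missed the threshold (adjusted p = 0.0515). AT3G45700 (NPF2.4), which loads chloride into the xylem, was at 5.49, 4.85 and 4.85 in KCl and 6.27, 7.0 and 6.87 in water. Its KCl arrays all lay below its water arrays, with a difference of -1.65 ± 0.45 (adjusted p = 0.164) and -2.08 without the narrow arrays. AT3G45710 (NPF2.5), a chloride efflux transporter, was at 0.02 ± 0.25. NRT2.5, a high-affinity nitrate transporter, was at 4.16, 4.29 and 4.52 against 3.84, 4.00 and 4.13, a difference of 0.33. AT2G26690 differed by -1.34 and AT3G45680 by 0.87, both with overlapping arrays.

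Of 44 listed genes of abscisic acid, cold and osmotic stress 6 were measured, and none passed. Values were lower in KCl roots for 5 of the 6 and higher for 1, with a median difference of -1.29, against 46.5% of all probe sets lower and a median of 0.03. The list's median level was 8.49, 7.36 and 6.68 on the KCl arrays and 8.8, 7.36 and 9.36 on the water arrays, so the groups overlapped. An unadjusted p under 0.05 was reached by 3 (2 with the replicate block), all lower, where 5.41% of all probe sets were lower at that p. LTI30, a dehydrin, was at 10.07, 9.63 and 8.43 in KCl and 11.97, 12.18 and 12.60 in water (difference -2.88 ± 0.79, adjusted p = 0.16). COR47, another dehydrin, was at 10.77, 9.61 and 8.97 against 11.43, 13.02 and 11.69 (difference -2.26 ± 0.78, adjusted p = 0.266). COR15A, a chloroplast-protecting cold-regulated protein, was at 4.44, 4.34 and 4.76 against 5.78, 5.86 and 8.32 (difference -2.14 ± 0.87, adjusted p = 0.368). The size of the COR15A difference rested partly on water replicate 3, without which it was -1.31, and COR15A was the gene whose unadjusted p was no longer under 0.05 with the block. In each of the 3 the KCl arrays lay below the water arrays. COR15B differed by -0.44, and its arrays did not overlap either. Without the narrow arrays the list's median was -1.65, with 5 lower and 1 higher, and in leaves it was -1.69. Between TiO2-in-KCl and CeO2-in-water roots it had the opposite sign, at 1.51.

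UGT71C5, the glucosyltransferase that conjugates abscisic acid, was at 8.14, 8.00 and 7.61 in KCl and 9.67, 8.99 and 9.45 in water. The arrays did not overlap, and the difference was -1.45 ± 0.28 (adjusted p = 0.0642). It belongs to the UDP-glycosyltransferases, a family that attaches sugars to hormones and secondary metabolites, in which 34 of 51 measured genes were lower and 9 of them had an unadjusted p under 0.05, where 5.41% of all probe sets were lower at that p. A further 2 were higher at that p. The family's median level was 5.04, 4.98 and 5.09 on the KCl arrays and 5.34, 5.45 and 5.38 on the water arrays, without overlap, although the median of the members' differences was -0.15. UGT78D2, of flavonol glycosylation, differed by -1.30 and UGT87A2 by -1.97, while GT72B1 differed by 1.2, but by 0.45 without the narrow arrays and by 0.77 without KCl replicate 3. None of these passed (adjusted p = 0.177, 0.191 and 0.206).

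Genes that respond to sugar starvation and break down branched-chain amino acids had lower values in KCl roots in 7 of the 8 measured, with a median difference of -0.95. Between TiO2-in-KCl and CeO2-in-water roots their median was 1.09, the opposite sign. In 5 of the 8 every KCl array was below every water array, where 7.7% of all probe sets were so, and 0 passed. The list's median level was 5.79, 5.65 and 6.0 in KCl and 7.02, 6.52 and 7.25 in water. All KCl arrays were thus below all water arrays, and the difference in leaves was 0.25. AT3G15450, a gene induced by darkness and sugar starvation, was at 12.02, 10.19 and 12.02 against 13.39, 13.36 and 13.25 (difference -1.92 ± 0.67, adjusted p = 0.271). ETFQO, which passes electrons from branched-chain amino acid breakdown to the respiratory chain, differed by -1.04 ± 0.39 (adjusted p = 0.325). MCCA, a subunit of the leucine-degrading methylcrotonyl-CoA carboxylase, was at 6.02, 5.89 and 5.77 against 7.16, 6.60 and 6.95 (difference -1.01, adjusted p = 0.547). AKINBETA1, a beta subunit of the SnRK1 energy-sensing kinase, was at -0.94 (adjusted p = 0.781). Of 15 nuclear genes of the citric acid cycle and citrate metabolism 13 were lower, with a median of -0.65, and of -0.35 without the narrow arrays. Their median levels overlapped, with KCl replicate 2 at 8.07 and water replicate 1 at 7.81. Only 1 was lower at an unadjusted p under 0.05 (limma), which is 6.67% against 5.41% of all probe sets. ACLB-1, a subunit of the ATP citrate lyase of the cytosol, differed by -1.26 ± 0.39 (adjusted p = 0.207).

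Transcripts of the plastid genome were higher in KCl roots across nearly all measured genes. Of 69 plastid-encoded genes 65 were higher, as were 53.5% of all probe sets, 36 of them (32 with the replicate block) at an unadjusted p under 0.05, where 6.18% of all probe sets were, and 0 passed. The list's median level was 7.42, 7.30 and 8.06 on the KCl arrays and 6.19, 4.88 and 6.36 on the water arrays. No water array reached the lowest KCl array, and water replicate 2 was the lowest of all. The members of this and every other list were read on the same 6 arrays. They are not replicates of the liquids, and counts of members are not a test. The median difference was 1.37 with all arrays, 1.44 without the narrow ones and between 0.78 and 1.69 with 1 array left out. In leaves it was -0.25, and between TiO2-in-KCl and CeO2-in-water roots -0.15. The nuclear photosynthesis genes, which mark leaf tissue, overlapped between the groups. Their median level was 6.09, 5.13 and 7.5 in KCl and 5.66, 6.49 and 7.36 in water roots. Of the 11 measured 4 were higher and 7 lower, with a median difference of -0.19, and without the narrow arrays all 11 were lower, with a median of -1.70. LHCB4.1, a minor antenna protein, differed by -1.0, RCA, the Rubisco activase, by -0.49 and PSAE-1, of photosystem I, by -0.89. Single arrays moved these values widely. With 1 array left out LHCB4.1 ran from -1.77 to -0.34, RCA from -0.84 to -0.056 and PSAE-1 from -1.65 to -0.051. The median of the list changed sign, to 0.20 without KCl replicate 2 and 0.058 without water replicate 3.

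By role, the plastid genes for ribosomal proteins and RNA polymerase had the largest median difference, 1.91, with 19 of 19 higher and 14 without overlap, where 8.21% of all probe sets were higher without overlap. Their median level was 7.42, 7.75 and 8.15 in KCl and 6.18, 4.86 and 5.87 in water. The gene rpl20, of the large ribosomal subunit, was at 8.49, 7.75 and 9.24 against 6.36, 4.94 and 5.87 (difference 2.77 ± 0.48, adjusted p = 0.0572). The gene rpoC1, of the plastid RNA polymerase, was at 7.40, 7.29 and 8.21 against 5.80, 5.04 and 5.73 (difference 2.11 ± 0.42, adjusted p = 0.0661). The small-subunit gene rps18 differed by 2.67 ± 0.64 (adjusted p = 0.124). In all 3 every KCl array was above every water array. The means of TiO2 and CeO2 roots were below that of KCl roots, as in 68.5% of all probe sets higher in KCl.

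Photosystem and cytochrome genes were higher in 23 of 26, with a median of 1.32, which was 0.71 without water replicate 2. Among those named here psaI, of photosystem I, was the farthest apart, at 10.55, 9.27 and 10.27 against 7.75, 4.43 and 7.51 (difference 3.46 ± 0.85, adjusted p = 0.13). The genes psaJ and psbN differed by 2.37 and 1.93 (adjusted p = 0.127 for both). The NDH complex genes, of cyclic electron flow, were higher in 10 of 10 with a smaller median of 0.84, which was 0.37 without water replicate 2 and 0.45 without the narrow arrays, and ndhC differed by 1.63 (adjusted p = 0.18). Of 6 ATP synthase genes 5 were higher, with atpH at 7.84, 6.88 and 8.49 against 5.96, 5.01 and 6.20 (difference 2.01 ± 0.44, adjusted p = 0.0965) and atpF at a difference of 1.28 (adjusted p = 0.165). The 8 remaining plastid genes were all higher. Among them matK, a maturase for intron splicing, differed by 2.41 ± 0.60, clpP, of the plastid protease, by 2.18 ± 0.55 and accD, of fatty acid synthesis, by 1.94 ± 0.61 (adjusted p = 0.133, 0.135 and 0.218).

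Mitochondrial transcripts shared the direction. Of 16 mitochondrion-encoded genes 15 were higher, 4 at an unadjusted p under 0.05 (6.18% of all probe sets were), with a median difference of 1.15, and of 0.44 without the narrow arrays. On single arrays the median level was 7.88, 7.23 and 8.03 in KCl and 6.63, 5.74 and 6.28 in water, again without overlap. The gene nad9, of respiratory complex I, was at 8.11, 7.49 and 8.45 against 6.22, 5.69 and 6.10 (difference 2.02 ± 0.38, adjusted p = 0.0637). The gene nad4, of the same complex, differed by 1.72 ± 0.44 and cox2, of cytochrome oxidase, by 1.68 ± 0.60 (adjusted p = 0.137 and 0.289). The gene nad1 had 7 probe sets, all higher, from 0.28 to 2.58, and both probe sets of nad5 were higher. Unlike the plastid genes, the mitochondrial list was also higher in KCl leaves, at 0.83, although the 2 organelles were not tested against each other. Copies of organelle sequence lie in the nuclear genome, and the probe sets cannot tell them apart.

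**Figure D4:**
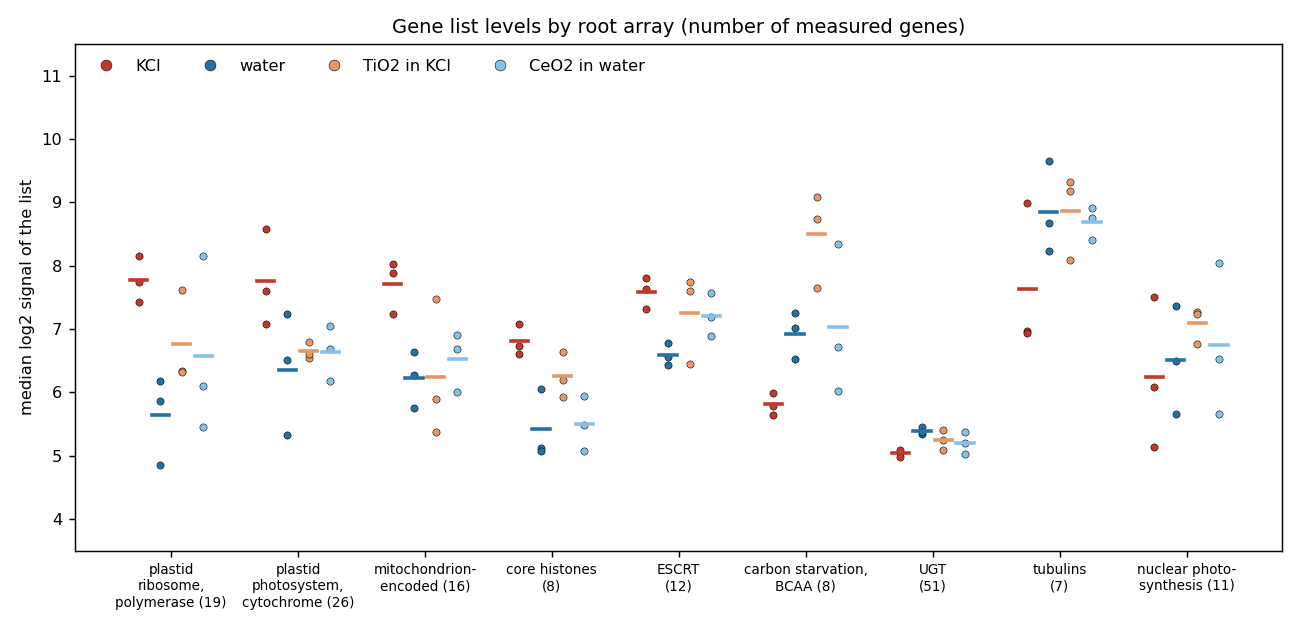
Median log2 signal over the measured genes of 9 lists (number of genes in brackets) for each root array (points), with group means as bars. KCl and water points do not overlap in the lists of plastid ribosome and polymerase, mitochondrion-encoded, core histone, ESCRT, carbon starvation and UDP-glycosyltransferase (UGT) genes, and they overlap in the plastid photosystem, tubulin and nuclear photosynthesis lists.

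Core histones, the proteins that package DNA and are made mainly in dividing cells, were higher in 8 of 8 measured genes. Of these, 5 had an unadjusted p under 0.05 (4 with the replicate block), where 6.18% of all probe sets were higher at that p. No overlap was found in 5, against 8.21% of all probe sets, and 0 passed. The median difference was 1.16, and 1.45 without the narrow arrays. Their median level was 6.74, 7.08 and 6.61 in KCl and 5.13, 6.06 and 5.07 in water. HTB1, a histone H2B, was at 9.08, 8.57 and 7.88 against 6.70, 6.88 and 6.58 (difference 1.79 ± 0.29, adjusted p = 0.0515). The H2B genes AT2G28720 and AT2G37470 were likewise free of overlap, with differences of 1.71 ± 0.29 and 2.16 ± 0.42 (adjusted p = 0.0571 and 0.0637). HTB4 differed by 1.12 and HTB11 by 1.19. Histone genes of a class are nearly alike, so their probe sets may share signal. The 1 measured gene of the cell cycle and DNA replication list differed by 0.28.

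Cytosolic ribosomal protein genes were higher in 90 of 132, with a median of 0.28, and of 0.66 without the narrow arrays. Of these, 18 were higher at an unadjusted p under 0.05, which is 13.6% against 6.18% of all probe sets. AT1G23410, described above, was the 1 that passed, where 0.0484% of all probe sets passed as higher. The list's median level was 9.98, 11.03 and 10.23 in KCl and 10.06, 10.01 and 10.33 in water, so the groups overlapped and KCl replicate 2 stood highest. AT4G26230, of the large subunit, was at 10.98, 12.04 and 11.46 against 10.06, 8.69 and 10.36 (difference 1.79 ± 0.46, adjusted p = 0.138). AT1G07070 differed by 1.44 ± 0.34 and AT3G47370 by 0.99 ± 0.23 (adjusted p = 0.118 and 0.11).

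ESCRT subunits, which sort ubiquitin-tagged membrane proteins into vesicles for the vacuole, were higher in 11 of 12, with a median of 0.78 (0.86 without the narrow arrays). Their median level was 7.81, 7.63 and 7.31 in KCl and 6.78, 6.56 and 6.43 in water. The exception was ELC, the ubiquitin-binding ESCRT-I subunit, at 9.60, 9.15 and 9.35 against 10.44, 10.48 and 10.64 (difference -1.16 ± 0.21, adjusted p = 0.0604). VPS60.2, an ESCRT-III-type subunit, was at 7.5, 7.31 and 7.42 against 6.34, 6.52 and 6.24 (difference 1.04 ± 0.17, adjusted p = 0.053). Both had tight replicates and no overlap, in opposite directions. VPS24.1 differed by 1.44 ± 0.52 (adjusted p = 0.295). Among the NET proteins, which link actin to membranes, 8 of 10 were higher with a median of 0.42, and NET1C was at 4.14, 4.48 and 4.16 against 3.1, 3.41 and 3.17 (difference 1.04 ± 0.19, adjusted p = 0.0604). The ATG8 autophagy list, named for proteins that mark autophagosomes, was higher in 7 of 10 genes, with ATG8G at 1.23 ± 0.36 and APG8A at -0.90 ± 0.50.

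Tubulins, the subunits of microtubules, were lower in 7 of 7 measured genes, with a median difference of -1.07. The median ran from -1.61 to -0.525 with 1 array left out. Without the narrow arrays, where KCl replicate 2 stands alone for KCl, 4 were higher and 3 lower, with a median of 0.07. The list's median level was 6.97, 8.99 and 6.94 in KCl, where the 2 low values are the narrow arrays, and 8.23, 9.66 and 8.67 in water. At each replicate number the KCl level was below the water level, but a pairing of the arrays by number is not established, and the groups overlapped. TUB7 differed by -1.65 and TUA6 by -1.09, and by -0.34 and 0.07 without those arrays. TUA1 kept its direction. It was at 6.97, 6.09 and 6.94 against 8.23, 8.25 and 8.32 (difference -1.60 ± 0.41, adjusted p = 0.142), and at -2.19 without the narrow arrays.

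Cell wall families were divided. XTH32, a xyloglucan-modifying enzyme, was at 5.91, 8.87 and 8.13 in KCl and 9.94, 11.69 and 11.13 in water (difference -3.28 ± 0.95, adjusted p = 0.181), whereas its family split 5 higher and 5 lower. Of 19 expansins, which loosen walls, 12 were lower with a median of -0.11, and EXPA16 differed by -0.60. COB, which orients cellulose deposition, differed by -1.36 (-0.20 without the narrow arrays), HCT, of lignin synthesis, by -0.78 and the endoglucanase gene GH9B5 by -0.73. None of these genes passed.

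Class III peroxidases, secreted enzymes that act on walls and peroxide, were lower in 33 of 55, with a median difference of -0.07. Of the 33, 5 had an unadjusted p under 0.05, where 5.41% of all probe sets were lower at that p, and none was higher at it. AT5G64120 was at 3.90, 4.87 and 5.23 against 6.51, 8.08 and 8.07 (difference -2.89 ± 0.78, adjusted p = 0.155), with every KCl array below every water array. AT5G58390 differed by -2.50, a value carried by water replicate 2 at 8.67, since it was -1.16 without that array. AT5G14130 differed by -1.26, and by -0.34 without the narrow arrays. Without overlap in the other direction were 2 of the 55, AT5G40150 and AT2G41480, where 8.21% of all probe sets were. They differed by 1.29 and 1.42 (adjusted p = 0.482 and 0.576), and their groups lay close together. The lowest KCl array of AT5G40150 was at 6.98 and its highest water array at 6.97, and those of AT2G41480 were at 9.32 and 9.20. JAL23, a jacalin-type lectin, was at 3.35, 3.47 and 3.40 against 4.55, 8.51 and 4.81, so that its difference of -2.55 also depended on water replicate 2, ranging from -3.25 to -1.27 with 1 array left out. Tau-class glutathione transferases, detoxifying enzymes, had a median of 0.08 over 11 genes, which turned below 0 when arrays were centred, but 2 of them were well apart. GSTU27 was at 6.63, 6.08 and 6.45 against 4.87, 4.43 and 4.6 (difference 1.75 ± 0.29, adjusted p = 0.057). GSTU23 was at 6.36, 7.16 and 6.84 against 4.8, 5.31 and 5.10 (difference 1.71 ± 0.30, adjusted p = 0.0572).

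UPB1, a bHLH factor that limits peroxidase expression in the root elongation zone, was at 5.30, 4.48 and 3.68 in KCl and 3.44, 2.97 and 3.22 in water (difference 1.27 ± 0.73, adjusted p = 0.577). RALFL31, a secreted signalling peptide, differed by -1.07 (adjusted p = 0.385). As reference genes, PEX4 differed by 0.18, AT4G34270 by -0.18 and AT2G28390 by -0.13, and the groups overlapped in each of them.

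**Figure D5:**
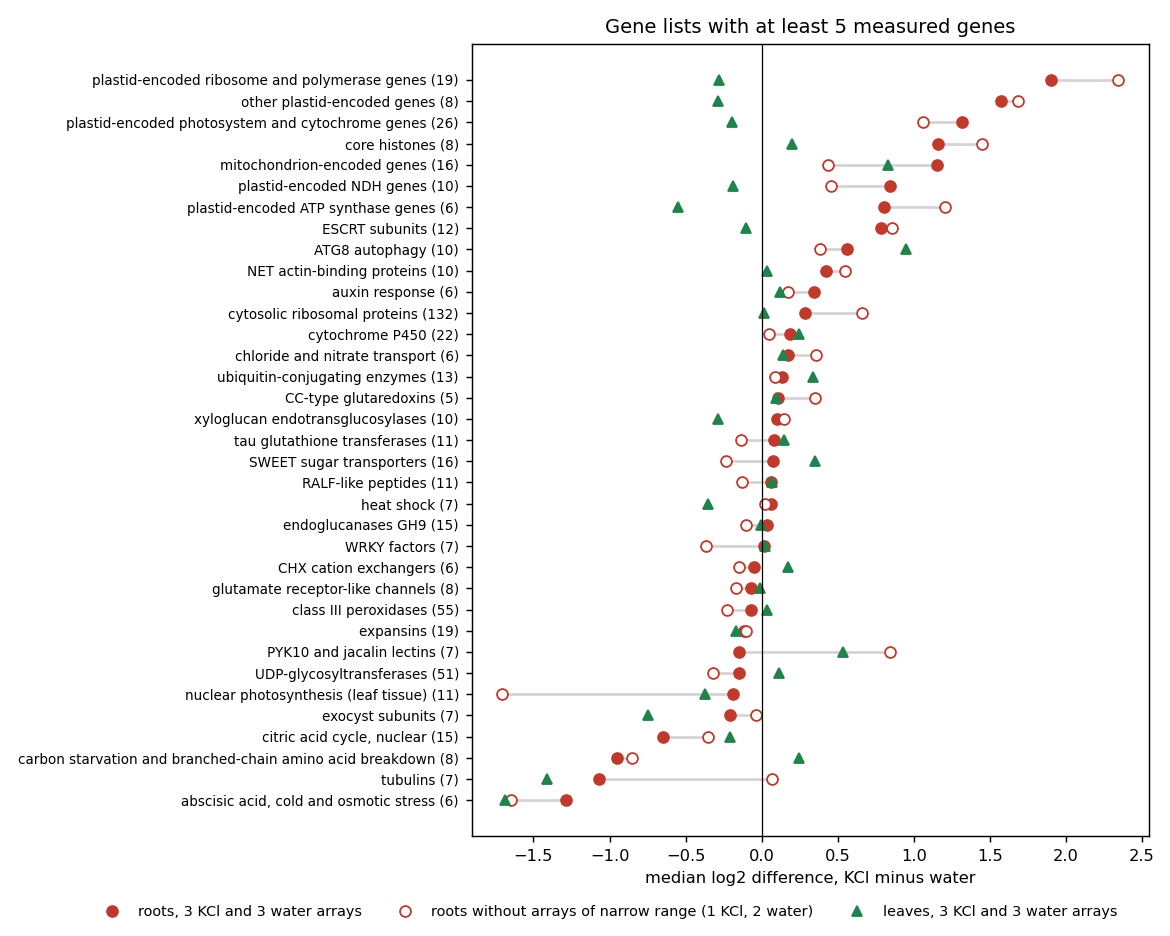
Median log2 difference, KCl minus water, of gene lists with at least 5 measured genes (number in brackets; plastid genes by role only, 1 list not shown), in roots with all arrays (filled circles), in roots without the arrays of narrow range (open circles, 1 KCl and 2 water arrays) and in leaves (triangles). Plastid-encoded lists lie right of 0 in roots and left of it in leaves, and the tubulin and nuclear photosynthesis lists move most when the narrow arrays are left out.

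Leaves of the same treatments differed between KCl and water in 43 probe sets (0.189%, 122 with the replicate block), 9 higher and 34 lower. That count was 3, 4 and 11 without KCl leaf replicate 3, water leaf replicate 1 and water leaf replicate 2, and 88 without water leaf replicate 3. None of the 27 probe sets called in roots was among them, while 21 of the 27 had the same sign in leaves, against 59% of all probe sets. AT1G72920 (2.04), AT1G30820 (-1.64) and AT4G34950 (-1.25) had the root sign and sizable leaf differences without passing. LHW was at 0.30 in leaves, AT5G48460 at -0.04 and AT1G05320 at 0.15.

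The difference between the tissues was tested directly, and 21 probe sets passed (0.0923%, 4 with the replicate block), 12 with a higher KCl effect in roots and 9 with a lower one. Leaving out single arrays moved that count between 0 and 42, with 0 without water root replicate 3, KCl leaf replicate 3 or water leaf replicate 1. It was 4 without water root replicate 1 or KCl leaf replicate 1, 5 without water leaf replicate 2, 6 without KCl root replicate 3, 13 without water root replicate 2 and 42 without KCl leaf replicate 2. Of the 21, 4 were also called in roots, where 0.119% of all probe sets were, among them AT1G31050 and AT1G23410. Both tests hold the same KCl and water root arrays, so this overlap partly follows from the choice of probe sets. It is no separate evidence for the root calls. AT1G23410 was at 3.34, 3.81 and 3.64 in KCl leaves and 4.35, 3.79 and 3.53 in water leaves, and its root effect exceeded its leaf effect by 3.03 ± 0.51 (limma adjusted p = 0.0331, 0.0751 with the block). AT1G31050 differed by 0.25 ± 0.18 in leaves, and its root effect was larger by 2.95 (adjusted p = 0.0331, 0.0578 with the block). Neither gene therefore passed this test with the block.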

How the data were processed

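Total RNA of roots and leaves was labelled and hybridised to Affymetrix ATH1 arrays. The log2 values were deposited by the authors, 1 per probe set and array, and were made with RMA per the submitters' processing notes. Its version, a genome build and the set of arrays normalized at once are not given in the sources used here. Of 22746 probe sets 13513 point to 1 gene, 503 to several and 8730 to none listed. Gene IDs were matched to RefSeq TAIR10.1 for symbols (13436 matched), and no coordinates were used. Gene lists held 1006 loci, of which 301 had a named probe set; 9 of 68 lists had no measured member.

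Linear models were fitted with limma 3.58.1 (R 4.3.3) to the 12 root arrays with 4 group means, and to 24 arrays for roots against leaves. Tests were two-sided with Benjamini-Hochberg adjustment over all probe sets at 0.05. The same steps were tested on simulated data with independent noise, without narrow arrays or replicate pairing. That run cannot tell how these features affect the calls. Tables and plots used Python 3.11.15, pandas 2.3.3 and matplotlib 3.10.9. Narrow arrays are those with a lower quartile above 3.7.

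Replicate numbers come from the sample titles. Deviations from the group mean correlated at 0.374, 0.341 and 0.176 between KCl and water roots of the same number and at -0.351 to -0.023 between different numbers. These values cannot establish a pairing. Deviations cancel within a group, so positive values at the same number bring negative ones between different numbers. Replicate 1 also had a narrow range in both groups. The numbers were taken to pair the arrays in an alternative fit, with the replicate number as a block. That fit is given beside each named call it ends and each count of calls it moves by over 1.5 times. It is also given for the gene lists whose count at an unadjusted p it is quoted for.

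Members and lists were chosen with earlier results of these data known. Named genes are up to 12 passing in each direction with arrays that did not overlap, filled up to 8 by the smallest unadjusted p, plus up to 5 passing members of each list or 3 with the smallest p, the reference genes, and up to 3 passing in each direction for roots minus leaves; list genes beyond these were picked with their values in view. Where a gene had more than 1 probe set, lists took that of the highest mean level. Promoter motifs were not analysed here, and 1 gene list is not reported here. Alternatives were other array sets, scalings, filters, variance models, array weights, the block and leaving out arrays. Those for leaves were added after seeing the data.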

Additional observations from a re-analysis of the deposited data

Results flagged for a closer look

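The KCl effect differed between roots and leaves in 21 probe sets, by a test of the difference itself (limma, adjusted p under 0.05), and in 4 with the replicate number as a block. Of the 10 named ones, the following were taken for their size, with AT1G31050 as a gene also called in roots. Among these 7 genes ZW9 kept the call with the block and the other 6 did not.

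ZW9, a gene of the TRAF-like family, was at 9.83, 9.25 and 9.03 in KCl roots and 9.44, 7.88 and 8.10 in water roots, and at 4.70, 4.32 and 4.61 in KCl leaves and 7.78, 6.87 and 7.23 in water leaves. Its effect was 0.89 in roots and -2.75 in leaves, a difference of 3.65 ± 0.57 (adjusted p = 0.0259, 0.00288 with the block). AT1G29670, a GDSL-type lipase, was below 4 in all 6 root arrays and fell in leaves, where it was at 6.84, 6.64 and 6.54 in KCl and 10.72, 9.52 and 9.56 in water. The difference between tissues was 3.05 ± 0.53 (adjusted p = 0.0331, 0.0751 with the block). For AT1G23410 it was 3.03 ± 0.51 (adjusted p = 0.0331, 0.0751 with the block), and for AT1G31050 it was 2.95 (adjusted p = 0.0331, 0.0578 with the block), both from higher levels in KCl roots.

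AT1G24530, a WD40-repeat protein, was at 9.06, 7.22 and 8.44 in KCl and 10.04, 10.23 and 10.31 in water roots, and at 9.52, 11.12 and 9.36 in KCl and 6.96, 8.74 and 8.48 in water leaves. Its arrays did not overlap in either tissue, in opposite directions, and the difference was -3.89 ± 0.69 (adjusted p = 0.0368, 0.0639 with the block). SWEET13, a sucrose exporter of the phloem in leaves, was at 9.49, 7.33 and 7.68 in KCl and 4.95, 5.42 and 5.0 in water leaves, with a root difference of -0.74, so that the tissues differed by -3.78 ± 0.69 (adjusted p = 0.0412, 0.088 with the block). AT2G18910 was at 6.01, 7.56 and 6.58 in KCl and 9.02, 8.26 and 9.14 in water roots, with a leaf difference of 0.28, and differed between tissues by -2.37 ± 0.43 (adjusted p = 0.0408, 0.0751 with the block).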

How the results depend on the processing

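With 3 arrays a group and calls close to the threshold, the counts depended on how the spread was estimated. For KCl against water in roots (27 calls), 0 were called with the 6 compared arrays alone, with the replicate block or without the narrow arrays, while 2682, 2633 and 1730 probe sets had an unadjusted p under 0.05. The count was 459 with all 24 arrays in 1 fit, 1551 with array weights, 16 among the brighter probe sets, and 0 to 17 with 1 array left out. It was 28 centred, 37 quantile-normalized again and 27 with a variance trend and a robust prior. Of the 27, 26 were still called with 24 arrays, 27 with array weights, 23 centred, 19 quantile-normalized again and 17 with the trend and robust prior. For TiO2 against CeO2 roots (38) the count was 0 with 6 arrays or without the narrow arrays (1771 and 2043 at an unadjusted p under 0.05), 4 with the block and 0 to 25 with 1 array left out. For leaves (43) it was 122 with the block and 3 to 88 with 1 array left out. It was 111 without the narrow leaf arrays, KCl replicate 2 and CeO2 replicate 2, with lower quartiles of 3.75 and 3.79. For roots minus leaves (21) it was 4 with the block, 35 quantile-normalized again, 37 without the narrow arrays and 0 to 42 with 1 array left out.

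The 12 named genes that passed kept their sign in all 175 results under these alternatives and stayed called in 59. Where arrays were left out the sign could not change, because the KCl and water arrays of these genes did not overlap. Of 94 named genes, 6 changed sign under some alternative. AT3G45710 was at -0.10 when centred or quantile-normalized and ran from -0.17 to 0.26 with 1 array left out. TUA6 was at 0.071 without the narrow arrays. AT2G28390 was at 0.16 with array weights, 0.14 without the narrow arrays and -0.28 to 0.12 with 1 array left out. With 1 array left out PYK10 ran from -0.49 to 0.81, PEX4 from -0.24 to 0.50 and AT4G34270 from -0.33 to 0.021. Of 39 gene list medians, 23 kept their sign throughout. Centring changed the sign of 7. The cause of these changes was not tested.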

Other observations

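Several gene families had small median differences between KCl and water roots. SWEET sugar transporters were higher in 10 of 16 with a median of 0.07, and lower in 14 of 16 without the narrow arrays. Cytochrome P450 genes were higher in 15 of 22 (median 0.19), ubiquitin-conjugating enzymes in 7 of 13 (median 0.13) and RALF-like peptides in 7 of 11 (median 0.06). The 7 PYK10 and jacalin lectin genes had a median of -0.15, and of 0.85 without the narrow arrays. Centring each array on its median turned the medians of the SWEET and RALF lists below 0, and quantile normalization turned those of the RALF list below 0 and of the PYK10 and jacalin list above it. None of these genes passed.

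Among small hormone and nutrient lists, 4 iron deficiency genes had a median of 0.43 (-0.05 without the narrow arrays), 3 circadian clock genes were all lower (median -0.41) and 6 auxin response genes had a median of 0.34. No aquaporin, phosphate starvation, ethylene, suberin or proton pump gene of the lists had a named probe set here.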
